A study of Homo sapiens with 12 samples.

Results

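The 8 genes described here encode a set of proteins that edit, bind or act beside ubiquitin chains downstream of the TNF receptor: TNFAIP3, TNIP1, TNIP2, TNIP3, CYLD, OTULIN, ZC3H12A and TAX1BP1. They were chosen by symbol, as the rows of the gene count table whose identifiers map to these names, and are 8 of 58288 rows. All 8 were found, 7 had reads, and TNIP3 had none in any library.

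When TNF-α binds its receptor, ubiquitin ligases build chains linked through lysine 63, lysine 48 or the first methionine of ubiquitin on the signalling complex, and kinases assembled on these chains release the transcription factor NF-κB. TNFAIP3 encodes A20, an NF-κB target that edits ubiquitin chains and binds them, and so limits the signal that induced it. TNIP1, TNIP2 and TNIP3 encode the ABIN adaptors, which bind linear ubiquitin and A20. CYLD cleaves lysine 63 and linear chains, and OTULIN cleaves linear chains. TAX1BP1 is a ubiquitin-binding adaptor of A20 that also acts as an autophagy receptor. ZC3H12A encodes Regnase-1, a ribonuclease that degrades inflammatory mRNAs and is itself a well known NF-κB target. Such feedback matters in neutrophils and their precursors, which meet TNF-α at sites of inflammation.

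The measurements were RNA-seq counts of HL-60/S4 cells, a subline of the human promyelocytic leukaemia line HL-60 that all groups share. Promyelocytes were the undifferentiated cells, and granulocytes were the same line after 4 days in 1 µM all trans retinoic acid (ATRA). Each form was given 16 ng/mL TNF-α or the same volume of water (vehicle) for 2 h in medium supplemented with calcium. Each of the 4 groups had 3 libraries, each from 1 flask of cells of the same line, so the p-values below measure the spread between flasks. Cells of both forms were at passage 8. Because each form was treated in an experiment of its own, the levels of a gene in the 2 forms are set side by side as a description, in which cell form and experiment cannot be told apart, and only the response to TNF-α was tested.

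The 12 libraries held 22829189 to 31895061 counted read pairs. Levels between groups are given as normalised read counts, in counts per 1000000 on library sizes corrected by the trimmed mean of M values (CPM). Levels between genes are given in TPM, which shares out 1000000 per library after division by the gene length in the deposited table. Sums, shares and percentiles over genes are also in TPM. A change between groups can differ in size or sign between the CPM and TPM scales. A gene was called increased or decreased where its Benjamini-Hochberg adjusted p from edgeR's quasi-likelihood test was under 0.05. The cell forms carried their markers. The summed level of 8 promyelocyte markers was 9560 to 10600 CPM in vehicle-treated promyelocytes and 2330 to 2560 CPM in vehicle-treated granulocytes, and that of 9 granulocyte markers was 271 to 293 CPM and 5210 to 5490 CPM. MPO made up 6160 to 6790 CPM of the promyelocyte sum in vehicle-treated promyelocytes, and MYC 1760 to 1990 CPM. The granulocyte marker CEBPE stood at 128 to 145 CPM in vehicle-treated promyelocytes and 197 to 225 CPM in vehicle-treated granulocytes. With TNF-α the 2 forms overlapped for CEBPE, at 90.6 to 99.9 CPM and 86.7 to 101 CPM. With TNF-α the promyelocyte markers stood at 7180 to 8170 CPM in promyelocytes, 5 of the 8 being decreased, while 6.65% of all genes tested were. In granulocytes with TNF-α they stood at 2260 to 2480 CPM. Of 7 tested there 1 was decreased, MYB, beside 24.8% of all genes tested. The granulocyte markers stood at 348 to 366 CPM in promyelocytes and 5810 to 6200 CPM in granulocytes with TNF-α, each above all vehicle libraries of the same cell form. Of the 9, 2 were increased and 1 decreased in promyelocytes and 4 were increased and 3 decreased in granulocytes, beside 8.15% and 6.65%, and 24.4% and 24.8%, of all genes tested. Those increased in promyelocytes were CYBB, from 109 to 117 CPM to 203 to 223 CPM, and NCF1, and the decreased one was CEBPE. Those increased in granulocytes were NCF1, TGM2, CD52 and FPR1, and those decreased were CD38, ITGAM and CEBPE. The 8 monocyte and macrophage markers summed to at most 5.11 CPM in promyelocytes. In granulocytes they summed to 101 to 104 CPM with vehicle and 68.6 to 75.4 CPM with TNF-α. CSF1R made up 48.9 to 51.1 and 29.7 to 33.6 CPM of this, and VSIG4 51.2 to 52.4 and 38.2 to 41.4 CPM. CD14 never passed 0.43 CPM in any library. The part of these shifts in the results below was not tested. In RNA from whole flasks, fewer cells expressing a gene and less RNA per cell cannot be told apart.

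Because several of these genes are known targets of NF-κB, the promoters of all 8 were searched for the NF-κB consensus, a motif of 10 letters, on both strands. The windows were those of RefSeq on GRCh38.p14, from 250 bases before to 50 bases after each start site, and positions below are counted from that start site. All 8 genes matched, with 14 windows, and 6 of the 14 windows, in 4 of the 8 genes, held the consensus. Of all 35116 windows 11.3% held it, and of all 27305 genes 13.3% had it in at least 1 window. The shares of genes are not like for like, since the 8 genes had more windows per gene than all genes and so more places for a match. The 30 bases around the matches are shown for the genes with the motif, with the matching letters in capitals. They include TNIP3, which had no reads in these cells, so the sequences can be read beside the responses.
TNFAIP3: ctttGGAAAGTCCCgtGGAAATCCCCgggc
TNIP1: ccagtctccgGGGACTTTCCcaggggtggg
CYLD, first start site: ttgacagagcGGAAAGTCCCttcggccggc
CYLD, last start site: cccccccaccGGGGCTTCCCcatcccccga
TNIP3, first start site: tcttaaaaaaGGGGTTTCCCtgtgtatggg
TNIP3, last start site: gagacatcctGGGAAATCCCtatttggaag

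The TNFAIP3 stretch lies on the + strand at chr6:137867188-137867217 and holds a pair of matches, which begin 67 and 55 bases before the start site. Windows with 2 or more matches made up 0.994% of all windows. All 30 bases lie in the exons of the gene model used for counting, whose first base is the first base of the stretch. The TNIP1 stretch lies on the - strand at chr5:151081057-151081086, with the match beginning 42 bases before 1 of the 2 start sites and with 28 of its bases in counted exons. The CYLD stretches lie on the + strand at chr16:50741887-50741916, upstream of the counted gene, and at chr16:50742405-50742434, inside its span but outside its exons. The former begins its match 189 bases before a start site, and the latter begins at the first base of another. TNIP3 had its matches on the - strand at chr4:121227526-121227555 and chr4:121164363-121164392, beginning 62 and 61 bases before 2 of its 3 start sites. No window of ZC3H12A, TNIP2, OTULIN or TAX1BP1 held these letters. The AP-1 motif TGANTCA, which does not overlap the NF-κB matches shown, was found in 1 of the 14 windows, that of the first TNIP3 start site, against 7.71% of all windows.

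TNF-α changed 4 of these genes in promyelocytes and 6 in granulocytes, and the change was mostly an increase. In promyelocytes 4 of the 7 genes with reads were increased (TNFAIP3, ZC3H12A, CYLD and TNIP1) and none was decreased, while 8.15% of the 16250 genes tested were increased and 6.65% were decreased. The count of 0 decreased genes was also 0 at an unadjusted p under 0.05 in edgeR and 0 by DESeq2. In granulocytes 5 were increased (TNFAIP3, ZC3H12A, TNIP1, CYLD and TNIP2) and 1 was decreased (TAX1BP1), while 24.4% of the 16944 genes tested were increased and 24.8% were decreased. OTULIN was called in neither. The TNF-α libraries lay above all vehicle libraries for the same genes as were called increased, an arrangement that 13.7% of all genes tested showed in promyelocytes and 28.4% in granulocytes. They lay below all vehicle libraries for OTULIN in promyelocytes (17.1% of all genes tested) and for TAX1BP1 in granulocytes (26.7%). The median log2 fold change of the 7 genes was 0.74 in promyelocytes and 0.89 in granulocytes, beside -0.0094 and -0.0047 over all genes tested. The responses of the 2 cell types, each measured in an experiment of its own, differed for 6 of the 7 genes by the interaction test, 4 with a larger log2 fold change in granulocytes and 2 with a smaller one. Over all genes 14.1% of 18124 had a higher and 9.88% a lower response in granulocytes.

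**Figure D1:**
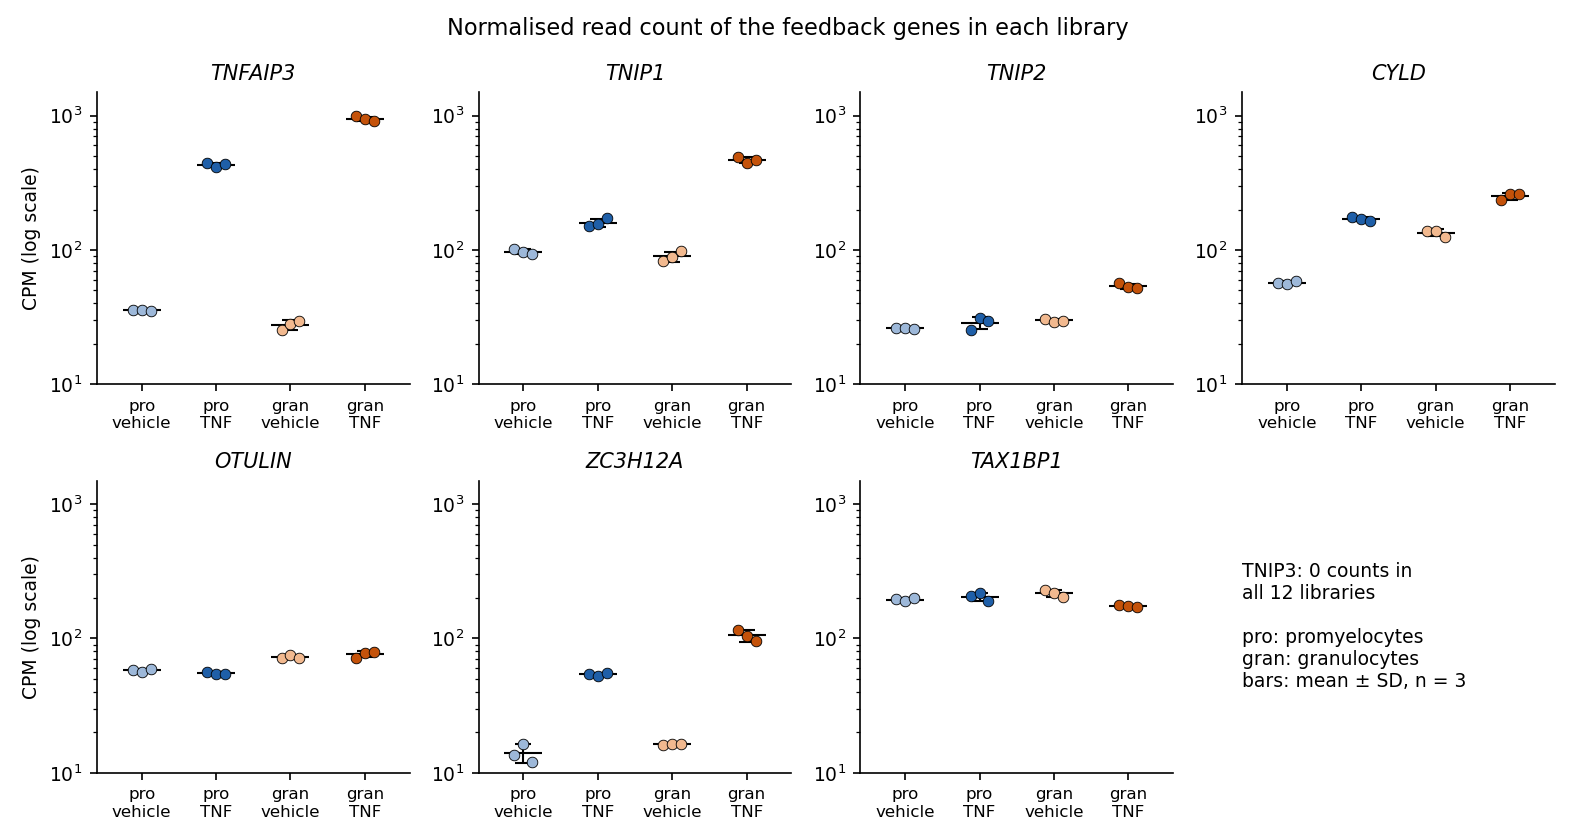
Normalised read counts (CPM, log axis) of the 7 genes with reads, in each of the 12 libraries, with the mean and SD of 3 libraries as bars. TNFAIP3 lies between 25.3 and 35.8 CPM in the 6 vehicle libraries and between 415 and 987 CPM in the 6 TNF-α libraries, whereas OTULIN stays between 54.0 and 79.6 CPM throughout.

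TNFAIP3 (ENSG00000118503.14, hg38 chr6:137867188-137883312, + strand, 10 merged exons) had the largest response of the 7 genes in both cell types. In promyelocytes its level was 35.5, 35.8 and 35.0 CPM with vehicle and 445, 415 and 434 CPM with TNF-α. In granulocytes it was 25.3, 28.0 and 29.7 CPM with vehicle and 987, 940 and 911 CPM with TNF-α. Treated and untreated libraries were far apart in each cell type, and the 3 libraries of a group were close together. The fold was 12.4 in promyelocytes (95% confidence interval 11.3 to 13.6, log2 fold change 3.63 ± 0.06 SE, adjusted p = 3.03e-19, edgeR) and 33.8 in granulocytes (30.9 to 37.0, log2 fold change 5.08 ± 0.06 SE, adjusted p = 3.56e-38). Ranked by log2 fold change among all genes tested, TNFAIP3 was number 38 of 16250 in promyelocytes and number 60 of 16944 in granulocytes. The order of the 4 groups ran from vehicle-treated granulocytes, through vehicle-treated promyelocytes and TNF-α-treated promyelocytes, to TNF-α-treated granulocytes, and no neighbouring groups overlapped. The granulocytes therefore began 1.28 times lower and ended 2.19 times higher on mean CPM than the promyelocytes.

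TNIP1 (ENSG00000145901.14, chr5:151029945-151093577, - strand, 24 merged exons), the gene of ABIN1, was the gene whose response differed most between the cell types. Promyelocytes had 101, 96.4 and 93.4 CPM with vehicle and 150, 155 and 172 CPM with TNF-α, a fold of 1.67 (1.52 to 1.82, log2 fold change 0.74 ± 0.06 SE, adjusted p = 2.17e-08, edgeR). Granulocytes had 83.0, 87.9 and 97.7 CPM with vehicle and 490, 443 and 465 CPM with TNF-α, a fold of 5.15 (4.76 to 5.58, log2 fold change 2.36 ± 0.06 SE, adjusted p = 2.17e-29). The vehicle libraries of the 2 cell types overlapped, while each TNF-α-treated granulocyte library was above every promyelocyte library.

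TNIP2 (ENSG00000168884.14, chr4:2741648-2756376, - strand, 6 merged exons), the gene of ABIN2, was increased in granulocytes. Promyelocytes had 26.4, 26.1 and 25.9 CPM with vehicle and 25.6, 31.1 and 29.7 CPM with TNF-α, and the groups overlapped through TNF-α replicate 1. The log2 fold change was 0.16 ± 0.08 SE (adjusted p = 0.189, edgeR), and without that replicate it was 0.24 and the gene was called (adjusted p = 0.044). The 95% confidence interval of the fold in the fit of all 6 libraries was 0.999 to 1.26. Granulocytes had 30.8, 29.2 and 29.6 CPM with vehicle and 56.3, 52.9 and 51.8 CPM with TNF-α, a fold of 1.78 (1.64 to 1.93, adjusted p = 1.31e-14). The 2 TNIP2 vehicle groups and the TNF-α-treated promyelocytes followed each other with overlap, and the TNF-α-treated granulocytes stood above them all.

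TNIP3 (ENSG00000050730.15, chr4:121131408-121227466, - strand, 17 merged exons), the gene of ABIN3, had 0 counts in all 12 libraries. A count of 0 allows up to 3 counts, which correspond to 0.0941 to 0.131 CPM at these depths, and this limit covers counting error only. TNIP3 could not be tested in either cell type, and no TNF-α response of it was detectable at this depth, although its promoter windows hold the motif shown above.

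CYLD (ENSG00000083799.17, chr16:50742050-50801935, + strand, 21 merged exons), a deubiquitinase, was increased in both cell types, from unequal starting levels. Promyelocytes had 56.6, 55.6 and 58.7 CPM with vehicle and 175, 169 and 165 CPM with TNF-α, a fold of 3.02 (2.78 to 3.30, log2 fold change 1.60 ± 0.06 SE, adjusted p = 6.50e-14, edgeR). Granulocytes had 140, 138 and 125 CPM with vehicle and 234, 260 and 260 CPM with TNF-α, a fold of 1.85 (1.72 to 1.998, log2 fold change 0.89 ± 0.05 SE, adjusted p = 7.09e-17). The vehicle-treated granulocytes were 2.36 times above the vehicle-treated promyelocytes on mean CPM, so the granulocytes reached the highest level with the smaller fold. No neighbouring groups overlapped in the order of vehicle-treated promyelocytes, vehicle-treated granulocytes, TNF-α-treated promyelocytes and TNF-α-treated granulocytes.

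OTULIN (ENSG00000154124.4, chr5:14664664-14699711, + strand, 7 merged exons), the deubiquitinase of linear chains, was not called in either cell type. Promyelocytes had 58.5, 56.4 and 59.1 CPM with vehicle and 56.3, 54.0 and 54.4 CPM with TNF-α. The 3 treated libraries all lay below the 3 vehicle libraries, by little, and the log2 fold change was -0.06 ± 0.06 SE (adjusted p = 0.592, edgeR). Granulocytes had 71.1, 75.4 and 72.1 CPM with vehicle and 71.7, 77.5 and 79.6 CPM with TNF-α, with overlap and a log2 fold change of 0.05 ± 0.05 SE (adjusted p = 0.442). The confidence intervals of the fold were 0.882 to 1.05 and 0.961 to 1.12. In granulocytes the sign depended on the scale, since the mean OTULIN level went from 72.8 to 76.3 CPM but from 27.8 to 24.4 TPM.

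ZC3H12A (ENSG00000163874.10, chr1:37474552-37484379, + strand, 6 merged exons), the gene of the ribonuclease Regnase-1, had the second largest response in both cell types. Promyelocytes had 13.6, 16.4 and 12.1 CPM with vehicle and 54.3, 52.4 and 55.6 CPM with TNF-α, a fold of 3.93 (3.45 to 4.46, log2 fold change 1.97 ± 0.09 SE, adjusted p = 1.34e-12, edgeR). Granulocytes had 16.1, 16.4 and 16.3 CPM with vehicle and 116, 104 and 95.5 CPM with TNF-α, a fold of 6.40 (5.84 to 7.03, log2 fold change 2.68 ± 0.07 SE, adjusted p = 5.45e-29). The vehicle groups overlapped, and the treated groups stood apart from them and from each other. Its 351 to 495 counts per vehicle library were the fewest of the 7 genes.

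TAX1BP1 (ENSG00000106052.13, chr7:27739331-27844564, + strand, 23 merged exons), the adaptor that links A20 to ubiquitin, was decreased in granulocytes. Promyelocytes had 195, 189 and 199 CPM with vehicle and 207, 218 and 189 CPM with TNF-α, which overlapped, with a log2 fold change of 0.10 ± 0.06 SE (adjusted p = 0.323, edgeR) and a fold between 0.981 and 1.17 at 95% confidence. Granulocytes had 231, 217 and 204 CPM with vehicle and 178, 174 and 172 CPM with TNF-α. All treated granulocyte libraries lay below all vehicle ones, and the log2 fold change was -0.33 ± 0.05 SE (adjusted p = 7.62e-07), a fold of 0.797 (0.743 to 0.854). The 4 group means ran from 175 to 217 CPM, and only the treated granulocytes stood apart from their neighbour in the order.

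**Figure D2:**
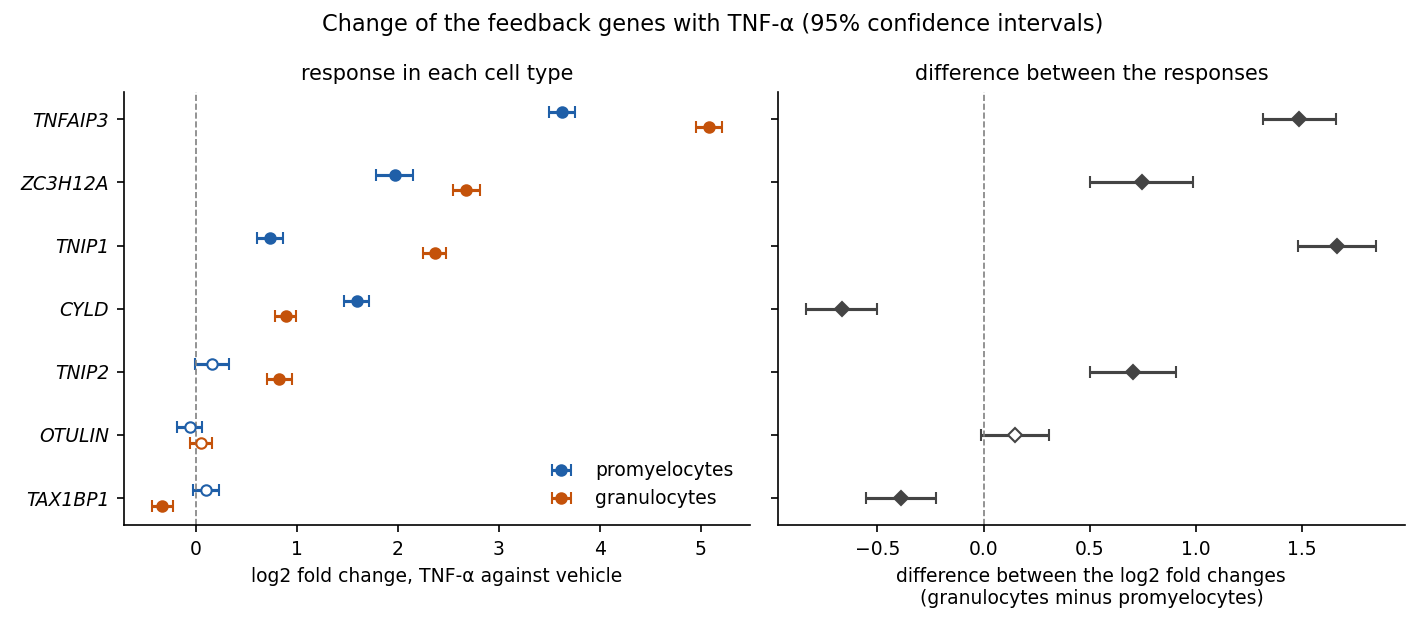
Log2 fold change with TNF-α of the 7 genes in promyelocytes and granulocytes (left) and the difference between the responses (right), with 95% confidence intervals; open symbols have an adjusted p of 0.05 or more. TNFAIP3, TNIP1, ZC3H12A and TNIP2 lie to the right of 0 in the panel of differences, CYLD and TAX1BP1 to the left, and OTULIN includes 0.

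The difference between the responses, as the log2 fold change in granulocytes minus that in promyelocytes, was tested as the interaction in 1 edgeR fit of the 12 libraries. Each response came from an experiment of its own, so in these differences, too, cell form and experiment cannot be told apart. It was 1.67 ± 0.09 SE for TNIP1 (adjusted p = 1.35e-13), the largest of the 7 genes. For TNFAIP3 it was 1.49 ± 0.08 SE (adjusted p = 3.55e-13). The other higher responses were those of ZC3H12A at 0.74 ± 0.12 SE (adjusted p = 2.83e-05) and TNIP2 at 0.70 ± 0.10 SE (adjusted p = 4.75e-06). The 2 ABIN genes with reads and A20 thus all responded more in granulocytes, as did Regnase-1. CYLD had a lower response in granulocytes, by -0.67 ± 0.08 SE (adjusted p = 4.50e-07), as did TAX1BP1, by -0.39 ± 0.08 SE (adjusted p = 0.000591). TAX1BP1 was decreased in 1 cell type and not called in the other, and for OTULIN the difference was 0.15 ± 0.08 SE (adjusted p = 0.187). With DESeq2's size factors in place of the trimmed mean the split over all genes moved from 2561 higher and 1790 lower to 2128 higher and 2266 lower, while the 6 genes kept their direction and their call.

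TNF-α also changed the order of these genes within a library. On the per-length scale, TAX1BP1 led in vehicle-treated promyelocytes at 61.2 ± 3.34 TPM (SD, n = 3), followed by TNIP1 at 48.3 ± 0.82 TPM and TNIP2 at 28.1 ± 1.16 TPM. TNFAIP3 at 20.3 ± 1.01 TPM and OTULIN at 19.4 ± 1.01 TPM overlapped, as did ZC3H12A at 13 ± 2.24 TPM and CYLD at 12.7 ± 0.81 TPM. With TNF-α the order in promyelocytes was TNFAIP3 at 255 ± 22.1 TPM, then TNIP1, TAX1BP1, ZC3H12A, CYLD, TNIP2 and OTULIN, with no overlap between neighbours. Vehicle-treated granulocytes were also led by TAX1BP1, at 77.9 ± 5.47 TPM, and TNFAIP3 at 17.97 ± 1.37 TPM overlapped with ZC3H12A at 17.1 ± 0.40 TPM in the lowest places. With TNF-α the granulocytes had TNFAIP3 at 516 ± 13.1 TPM, TNIP1 at 222 ± 14.4 TPM and ZC3H12A at 92.7 ± 5.63 TPM, followed by TNIP2, CYLD and TAX1BP1, which overlapped between 48 and 58.5 TPM, and by OTULIN at 24.4 ± 2.41 TPM. Among the 18124 genes tested in the 12 libraries, TNFAIP3 moved from the 65.0th to the 97.8th percentile of TPM in promyelocytes and from the 59.0th to the 99.0th in granulocytes.

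**Figure D3:**
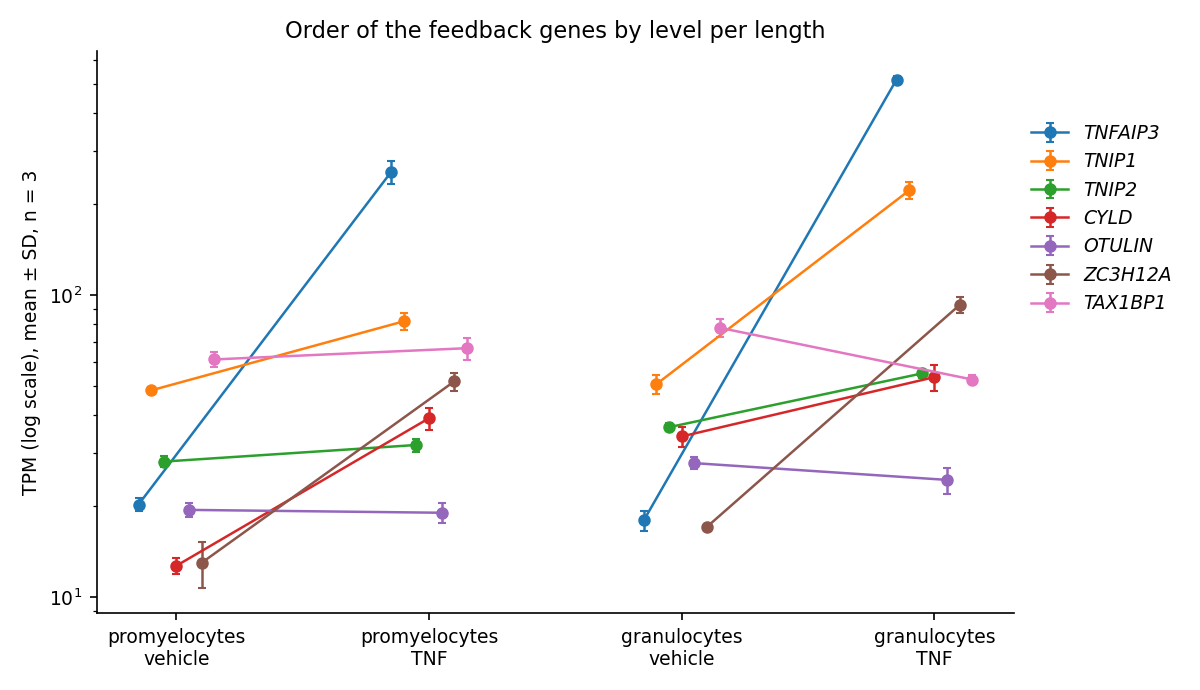
Level per gene length (TPM, log axis) of the 7 genes in the 4 groups, as mean and SD of 3 libraries, with lines joining vehicle and TNF-α within a cell type. TNFAIP3 rises from 20.3 to 255 TPM in promyelocytes and from 17.97 to 516 TPM in granulocytes, and is then above the other 6 genes in both. TAX1BP1 falls from the first place in granulocytes to below TNFAIP3, TNIP1 and ZC3H12A, where it overlaps with TNIP2 and CYLD.

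The balance between A20 and its partners, described as ratios of TPM within each library, moved with TNF-α in both cell types. TNFAIP3 per TNIP1 was 0.419 ± 0.016 (SD, n = 3) with vehicle and 3.12 ± 0.25 with TNF-α in promyelocytes, and 0.354 ± 0.0095 and 2.33 ± 0.095 in granulocytes. With TNF-α there was thus less TNFAIP3 per TNIP1 in granulocytes (2.25 to 2.43) than in promyelocytes (2.90 to 3.40), without overlap, though the level of TNFAIP3 was higher. TNFAIP3 per TAX1BP1 went from 0.331 ± 0.012 to 3.84 ± 0.35 in promyelocytes and from 0.232 ± 0.033 to 9.82 ± 0.22 in granulocytes. Against CYLD it went from 1.60 ± 0.060 to 6.53 ± 0.23 and from 0.531 ± 0.073 to 9.70 ± 0.99. Summed over the 8 genes the level was 203 ± 8.08 TPM and 545 ± 33.1 TPM in promyelocytes, and 262 ± 5.88 TPM and 1015 ± 33.9 TPM in granulocytes. TNFAIP3 made up 9.98% and 46.7% of this sum in promyelocytes and 6.87% and 50.8% in granulocytes. Changes with TNF-α in TPM are not those in CPM. In granulocytes mean TNIP2 went from 36.5 to 55.0 TPM but from 29.9 to 53.7 CPM. Mean TAX1BP1 went from 77.9 to 52.5 TPM but from 217 to 175 CPM there. These ratios describe RNA and were given no test.

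Several of these genes have neighbours that start close by or overlap them on the opposite strand, and counting was by strand. Whether some reads of a gene were still counted for its neighbour on the other strand was not tested. WAKMAR2, a long non-coding RNA gene on the opposite strand whose start is 1045 bases from that of TNFAIP3 and which shares 95 exon bases with it, was increased with TNFAIP3 in both cell types. It had 31 to 39 counts in promyelocytes with vehicle and 64 to 80 with TNF-α, with a log2 fold change of 1.08 ± 0.22 SE (adjusted p = 0.00174, edgeR). In granulocytes it had 21 to 31 and 105 to 135 counts and a log2 fold change of 2.54 ± 0.21 SE (adjusted p = 7.52e-13). CYLD-AS1, which starts 765 bases from CYLD on the other strand, had 1 to 2 and 6 to 15 counts in promyelocytes, where it was too low to be tested. In granulocytes it had 46 to 72 and 75 to 89 counts and was increased by 0.69 ± 0.20 SE (adjusted p = 0.00423). ZC3H12A-DT, a divergent transcript that starts 141 bases from ZC3H12A, never passed 25 counts. It was increased in granulocytes (log2 fold change 1.40 ± 0.42 SE, adjusted p = 0.00576) and had a log2 fold change of 1.05 ± 0.47 SE in promyelocytes (adjusted p = 0.155), a difference that was not tested. JAZF1, which overlaps TAX1BP1 on the opposite strand and shares 415 exon bases with it, was increased in granulocytes by 0.42 ± 0.08 SE (adjusted p = 5.72e-05), where TAX1BP1 was decreased, and had a log2 fold change of -0.05 ± 0.10 SE in promyelocytes (adjusted p = 0.791). TAX1BP1-AS1, OTULIN-DT, MIR3181 and ENSG00000260616 had at most 21 counts in any library, and RNU6-948P had 0. MIR6732 also had 0, but it shares 60 exon bases with ZC3H12A on the same strand. Pairs on such shared bases are not counted by default, so this 0 gives no level.

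Genes with the most similar course over the 12 libraries were sought for each of the 7 genes. They were the 3 with the smallest root mean square difference of log2 CPM after centring, among 18123 genes. These likenesses are a description, since the 12 points share 4 groups and 1 treatment. Nearest to TNFAIP3 were NFKB2, a subunit of NF-κB, at 0.135, IER3, an early response gene, at 0.249, and NFKBIA, the inhibitor of NF-κB, at 0.276, where the median gene was at 2.28. All 3 had large responses in both cell types, of 3.85 and 4.87 for NFKB2, 3.95 and 4.63 for IER3, and 3.91 and 5.51 for NFKBIA on the log2 scale in promyelocytes and granulocytes. The genes nearest to TNIP1 were SMAD3 at 0.154, ZMIZ2 at 0.158 and NFE2L2 at 0.170, where the median gene was at 1.07. SMAD3 had log2 fold changes of 0.43 in promyelocytes and 2.43 in granulocytes, beside 0.74 and 2.36 for TNIP1. Nearest to ZC3H12A were STX11 at 0.163, DMXL2 at 0.245 and MUC1 at 0.260. Those for CYLD were FCGBP, FLOT1 and NOTCH2NLA, at 0.200 to 0.216, of which NOTCH2NLA has near-identical copies and its count is uncertain. FCGBP had log2 fold changes of 1.58 in promyelocytes and 0.51 in granulocytes, beside 1.60 and 0.89 for CYLD. The nearest to TNIP2 were ADO, KIF13B and FAM219A at 0.058 to 0.0895. Near to OTULIN were HARS2 at 0.0433 and PRR13 at 0.0496, and nearest to TAX1BP1 were AP5M1, ARL6IP1 and INTS8 at 0.047 to 0.0605, in ranges of only 0.56 and 0.425 on the log2 scale for OTULIN and TAX1BP1 themselves. The median gene was at 1.32 for ZC3H12A, 0.919 for CYLD and 0.633 for TNIP2. It was at 0.527 for OTULIN and 0.5 for TAX1BP1.

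The other ubiquitin genes of the pathway were examined as 6 lists. Where none of a list is given as increased or decreased, that count of 0 was also 0 at an unadjusted p under 0.05 in edgeR and 0 by DESeq2, except that RBCK1 fell under the unadjusted threshold in granulocytes. The list of ligases and conjugating enzymes of lysine 63 and lysine 48 chains also holds an adaptor, TRAF1. In this list 6 of the 14 genes tested were increased and none decreased in promyelocytes, and 10 were increased and 1 decreased in granulocytes. The median log2 fold change was 0.10 and 0.33. Over all genes tested the shares were 8.15% increased and 6.65% decreased in promyelocytes and 24.4% and 24.8% in granulocytes. BIRC3, the gene of cIAP2, a ligase of the TNF receptor complex, went from 1.54 ± 0.23 to 72.9 ± 3.39 CPM in promyelocytes and from 0.726 ± 0.17 to 232 ± 5.59 CPM in granulocytes (SD, n = 3), with log2 fold changes of 5.58 ± 0.10 SE and 8.31 ± 0.09 SE. TRAF1, a receptor adaptor, went from 1.43 ± 0.68 to 32.1 ± 4.39 CPM and from 2.95 ± 0.55 to 442 ± 38.9 CPM, with log2 fold changes of 4.51 ± 0.18 SE and 7.20 ± 0.09 SE. TRAF3 was increased by 0.77 ± 0.06 SE and 2.33 ± 0.05 SE, and PELI1, the gene of Pellino 1, by 1.62 ± 0.08 SE and 1.18 ± 0.07 SE. By the interaction test the responses of BIRC3 (adjusted p = 6.64e-11, edgeR), TRAF1 (2.67e-08) and TRAF3 (2.06e-14) were higher in granulocytes, and that of PELI1 was lower, as for CYLD (-0.41 ± 0.10 SE, adjusted p = 0.00358). PELI2, named here after its value was seen, was the decreased one in granulocytes (-1.57 ± 0.17 SE, adjusted p = 9.86e-10).

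The list of the linear chain assembly complex LUBAC and of the recruiter of CYLD to it held 5 genes, all tested. In promyelocytes 1 of the 5 was decreased and none increased (6.65% and 8.15% of all genes tested), and in granulocytes 3 were increased and none decreased (24.4% and 24.8%). RBCK1 (HOIL-1) was decreased in promyelocytes by -0.28 ± 0.08 SE (adjusted p = 0.0167, edgeR). That call ended without vehicle replicate 1, TNF-α replicate 1 or TNF-α replicate 2, at -0.21 to -0.26 with adjusted p of 0.0584 to 0.114. In granulocytes its log2 fold change was -0.13 ± 0.06 SE (adjusted p = 0.0578), called without vehicle replicate 2 (-0.16, adjusted p = 0.034) or TNF-α replicate 1 (-0.15, adjusted p = 0.0375). RBCK1 was also called decreased there with GC content and length trends removed. Over 14 other settings its log2 fold change in granulocytes ran from -0.29 to -0.09. The genes increased in granulocytes included SPATA2, the protein that bridges CYLD to LUBAC, by 0.38 ± 0.08 SE (adjusted p = 7.51e-05), and its relative SPATA2L by 1.097 ± 0.14 SE (adjusted p = 3.68e-08). RNF31, the gene of the catalytic subunit HOIP, was called at 0.17 ± 0.07 SE (adjusted p = 0.0298), and lost the call in 9 of 14 other settings, including without vehicle replicate 1 or 2 or TNF-α replicate 1 or 2 (0.11 to 0.18, adjusted p of 0.0545 to 0.221). The median log2 fold change of the list was -0.04 and 0.17.

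Of the partners of A20 and CYLD, 5 were tested, 1 was increased in promyelocytes and 3 in granulocytes, with none decreased, and the medians were 0.14 and 0.18. Of all genes tested 8.15% and 24.4% were increased, and 6.65% and 24.8% decreased. RNF11, a partner of the A20 complex, was increased by 0.22 ± 0.06 SE in promyelocytes (adjusted p = 0.0175, edgeR) and by 0.18 ± 0.05 SE in granulocytes (adjusted p = 0.00427). The former call ended without any 1 of the 3 vehicle replicates, at 0.22 to 0.23 with adjusted p of 0.0517 to 0.0857, and also once trends with GC content and length were taken out. It was lost in 6 of 14 other settings. IKBKG, the gene of NEMO, the kinase subunit that binds ubiquitin, was increased by 0.28 ± 0.07 SE in granulocytes (adjusted p = 0.00115), a call that ended with GC content and length trends removed. MALT1, a protease that cleaves A20, was increased there by 0.27 ± 0.07 SE (adjusted p = 0.00195).

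Of the other deubiquitinases 15 were tested, with 1 increased and 1 decreased in promyelocytes and 5 increased and 5 decreased in granulocytes, and medians of 0.02 and -0.03. Beside all genes tested, of which 8.15% were increased and 6.65% decreased in promyelocytes and 24.4% and 24.8% in granulocytes, these counts are near the background. In promyelocytes these were OTUD4 and OTULINL, the latter a relative of OTULIN, decreased by -0.39 ± 0.09 SE (adjusted p = 0.00354, edgeR) and not called in granulocytes (-0.03 ± 0.08 SE, adjusted p = 0.768). In granulocytes USP10 rose by 0.37 ± 0.05 SE, with OTUD4, OTUD7B, USP4 and USP25. The decreased genes there were USP18 at -0.55 ± 0.14 SE and STAMBP at -0.41 ± 0.06 SE, with BRCC3, USP21 and VCPIP1. OTUD4, OTUD7B, USP4, USP25, BRCC3, USP21 and VCPIP1 are named here after their values were seen. All 12 calls were under 0.6 in size on the log2 scale, below those of CYLD and TNFAIP3.

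Among 8 genes of Regnase and Roquin mRNA decay, 2 were increased and 1 decreased in promyelocytes and 6 were increased and 2 decreased in granulocytes, with medians of -0.06 and 0.26. The background over all genes tested was 8.15% increased and 6.65% decreased in promyelocytes, and 24.4% and 24.8% in granulocytes. N4BP1, a ribonuclease related to Regnase-1, was increased by 0.25 ± 0.06 SE in promyelocytes and 1.00 ± 0.05 SE in granulocytes, and its response was higher in granulocytes by 0.79 ± 0.08 SE (adjusted p = 1.15e-08, edgeR). ZC3H12D, a paralogue of ZC3H12A, went the other way from it in granulocytes, at -0.85 ± 0.08 SE (adjusted p = 1.29e-11). ZFP36L2, which destabilizes mRNAs with AU-rich elements, was decreased by -1.20 ± 0.06 SE in promyelocytes and -0.47 ± 0.05 SE in granulocytes. ZFP36L1 was called in granulocytes (1.24 ± 0.46 SE, adjusted p = 0.0241) on 3 to 15 counts per library. That call ended without vehicle replicate 1 (0.93, adjusted p = 0.133), TNF-α replicate 1 (1.24, adjusted p = 0.0535) or TNF-α replicate 3 (1.18, adjusted p = 0.0707), and also with DESeq2, with no expression filter and with counts thinned to the smallest library, in all 6 of 14 other settings.

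Among 9 ubiquitin-binding autophagy receptors and their kinase adaptors, 3 were increased and 1 decreased in promyelocytes and 4 increased and 3 decreased in granulocytes, with medians of 0.14 and 0.04. All genes tested had 8.15% increased and 6.65% decreased in promyelocytes, and 24.4% and 24.8% in granulocytes. SQSTM1, the gene of the receptor p62, was increased by 0.72 ± 0.07 SE in promyelocytes and 2.45 ± 0.05 SE in granulocytes, from 68.5 ± 6.57 to 111 ± 9.28 CPM and from 79.5 ± 3.80 to 437 ± 22.9 CPM (SD, n = 3). It thus had the opposite response to TAX1BP1 in granulocytes, and its interaction was 1.77 ± 0.10 SE (adjusted p = 1.86e-13, edgeR). TANK, an adaptor of the kinase TBK1, was increased by 1.24 ± 0.08 SE and 1.21 ± 0.05 SE. TBKBP1 was decreased by -0.59 ± 0.09 SE in promyelocytes and increased by 0.55 ± 0.05 SE in granulocytes, a difference of 1.17 ± 0.10 SE (adjusted p = 4.97e-10). CALCOCO1 was decreased in granulocytes by -0.46 ± 0.08 SE (adjusted p = 3.92e-06).

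**Figure D4:**
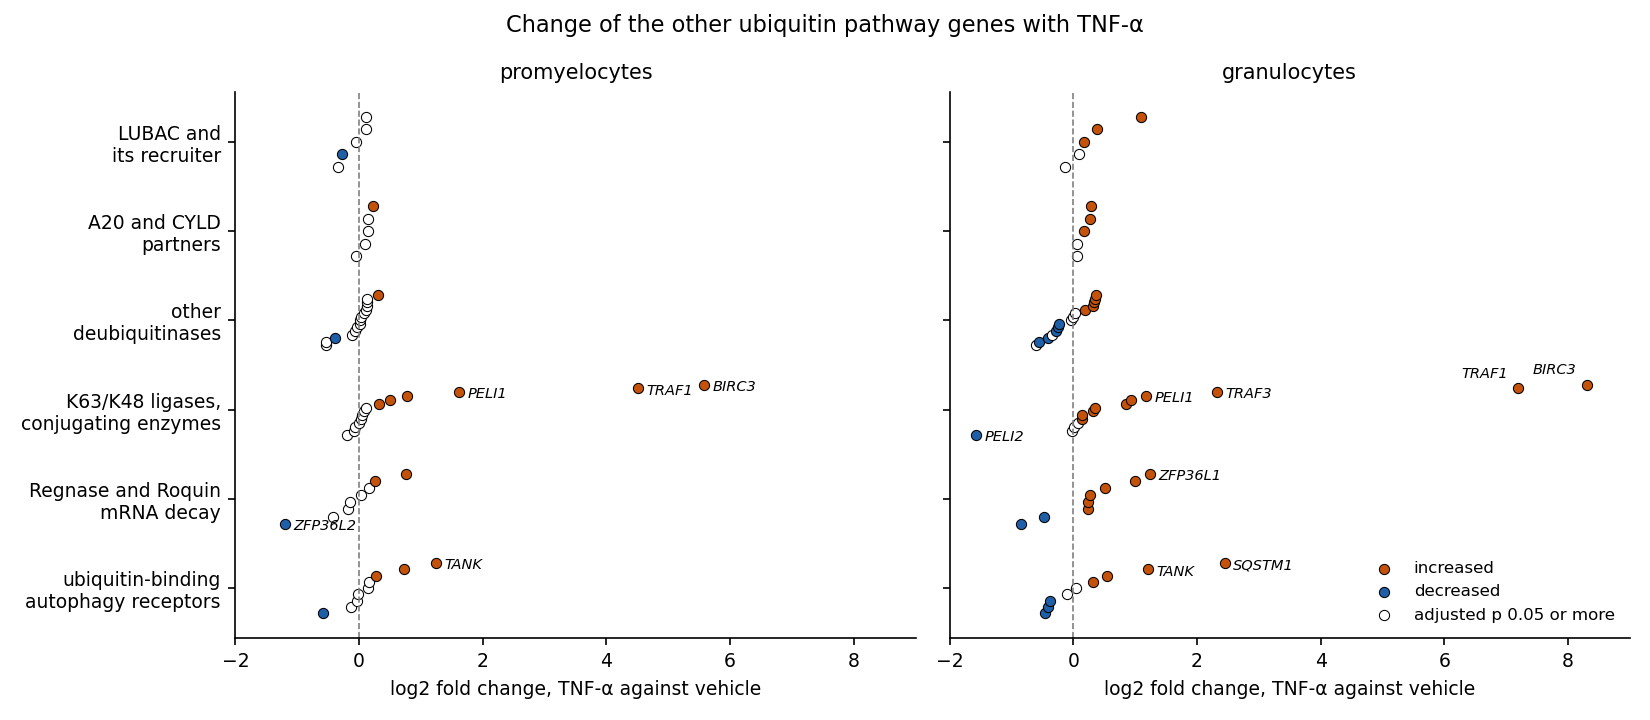
Log2 fold change with TNF-α of every tested gene of the 6 pathway lists in promyelocytes (left) and granulocytes (right), coloured by call, with names where the change is over 1.1 in size. The ligase list, which includes the adaptor TRAF1, holds the largest changes. These are BIRC3 and TRAF1, at 5.58 and 4.51 in promyelocytes and 8.31 and 7.20 in granulocytes. In the LUBAC list SPATA2L in granulocytes is the point farthest from 0, at 1.097.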

How the data were processed

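RNA-seq of ribosome-depleted RNA from 12 HL-60/S4 libraries was analysed, 3 for each of 4 groups named by the labels. The authors aligned 150-base read pairs to hg38 with STAR 2.5.3a and counted them on GENCODE 27 genes with featureCounts 1.5.2, and deposited these raw counts of read pairs per gene without normalization. By the options in the file header, a pair counted when both mates aligned to the same chromosome, as primary alignments and on the reverse strand. Pairs on exons of more than 1 gene of a strand are not counted by default.

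Symbols from the reference annotation matched 57532 of 58288 identifiers. TNF-α was compared with vehicle within a cell type, using edgeR 4.0.16 and R 4.3.3 on its 6 libraries (trimmed mean of M values, filterByExpr with a minimum count of 10 and a minimum total of 15, quasi-likelihood test, Benjamini-Hochberg threshold 0.05 over all genes). The interaction came from a 4-group model of the 12 libraries. Each standard error is the log2 fold change divided by the root of F. An exact permutation test of 3 against 3 libraries cannot go below p = 0.1. CPM and TPM were computed from the counts and the gene lengths in the table. Promoter windows came from RefSeq on GRCh38.p14, and no protein sequence was used here.

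Genes in the text are the 8 of the set, up to 4 called genes with the largest change in each of 6 pathway lists, the 3 genes nearest in pattern to each of the set, and genes that overlap it or start within 5000 bases, with additions marked. A gene near in pattern to OTULIN is not reported here. The set, the lists and the tests were chosen with earlier results of these data known. Alternatives were DESeq2 1.42.0 and its size factors, no filter, a replicate block, thinning to the smallest library, removal of GC and length trends, 1 fit of all libraries, an adjusted p under 0.01, and each library left out in turn. The scripts were tested on simulated counts. Plots used matplotlib 3.10.9.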

Additional observations from a re-analysis of the deposited data

Results flagged for a closer look

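The response to TNF-α differed between the cell types, by the interaction test in edgeR, for 6 of the 7 genes that could be tested, and since each cell type had its own experiment, cell type and experiment cannot be told apart in it. The difference (log2 fold change in granulocytes minus promyelocytes) was 1.488 for TNFAIP3, 1.668 for TNIP1, 0.7036 for TNIP2 and 0.7445 for ZC3H12A, and -0.6689 for CYLD and -0.39 for TAX1BP1. Each kept its direction and its call in all other settings and with each of the 12 libraries left out in turn. Over those fits the difference ran from 1.40 to 1.54 for TNFAIP3, from 1.53 to 1.73 for TNIP1, from 0.49 to 0.76 for TNIP2 and from 0.50 to 0.84 for ZC3H12A. For CYLD it ran from -0.75 to -0.57, and for TAX1BP1 from -0.47 to -0.34. CYLD had unequal vehicle levels, 57.0 ± 1.57 CPM in promyelocytes and 134 ± 7.99 CPM in granulocytes (SD, n = 3), and the part of the starting level in its smaller fold was not tested.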

How the results depend on the processing

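All calls of the 7 genes kept their direction in every setting, and all kept their side of the threshold but for TNIP2 in promyelocytes, whose log2 fold change of 0.16 (adjusted p = 0.189, edgeR) became a call with GC content and length trends removed (0.21, adjusted p = 0.0311) and without TNF-α replicate 1 (0.24, adjusted p = 0.044), and ran from 0.11 to 0.24 over the libraries left out. The cause was not tested. The genes increased in promyelocytes numbered 4, and 5 in those settings with TNIP2, while granulocytes had 5 increased and 1 decreased in every setting, the threshold of 0.01 included. The labels do not say whether replicate numbers pair the samples, and they were treated as unpaired. Same-numbered vehicle and TNF-α libraries had correlations of -0.146 to -0.0129 between their deviations from the group means. Those of differently numbered libraries ran from -0.0976 to 0.149. With 3 libraries in a group these values cannot show whether flasks were paired. With the replicate number as a block these counts were the same, the pathway genes increased went from 13 to 12 in promyelocytes and from 31 to 29 in granulocytes, and all genes increased in promyelocytes from 1324 to 1012. With DESeq2 the pathway genes increased were 14 and 29. Over all genes the split of the interaction was 2561 higher and 1790 lower, but 1991 and 2518 without the filter and 1942 and 2299 with DESeq2. Genes decreased in promyelocytes numbered 1081, and 653 without vehicle replicate 2 or 667 without TNF-α replicate 2. The mean CPM of ZC3H12A in vehicle-treated granulocytes moved from 16.3 to 16.5 with DESeq2's size factors, beyond its SD of 0.18. Depth limits TNIP3, at 0 counts, and the neighbouring genes with few counts.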
